A study of Mus musculus with 2 samples.

Results

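The collagen genes were examined in single cells of the mouse cornea. A gene was taken when its symbol followed the pattern of a collagen alpha chain (Col, a type number, a, a chain number), leaving out *Col17a1*, and when at least 20 unique molecular identifiers (UMIs, each 1 captured RNA molecule) were counted for it over all cells. Of 41 such symbols 36 met this minimum, out of 20198 genes in all, and 22 of the 36 reached 50 UMIs per 1000000 (CPM) in a library of at least 1 cluster with 50 cells or more. The 5 symbols under the minimum were *Col6a5*, *Col9a2*, *Col19a1*, *Col26a1* and *Col28a1*, with 2 to 11 UMIs each. Male mice of 6 to 8 weeks, with no strain given in the sources used here, gave 2 droplet libraries. The unwounded library (UW) pooled 8 corneas of 4 mice, and the wounded library (W) pooled 8 corneas of 4 mice taken 24 h after the central epithelium was scraped from an area of 2.5 mm diameter, a procedure meant to spare the stroma. The libraries held 16450 UW cells and 12417 W cells in 17 deposited clusters, with medians of 22014 and 20290 UMIs per cell, and 52 cell barcodes occurred in both. The study assigned cells to mice, but no assignment of cells to mice was used here. With 1 library per condition no gene was tested, no p-value was made from cells, and each interval below is a 95% interval for counting error only.

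Collagens are proteins of 3 alpha chains wound into a triple helix, and in the cornea they make up most of the dry mass of the stroma. There, keratocytes lay down thin, evenly spaced fibrils of type I collagen with type V, whose regular packing is needed for transparency. Fibril-associated collagens coat these fibrils, type VI forms beaded microfibrils between them, type IV forms the networks of basement membranes, type VII anchors the epithelium, type VIII builds the hexagonal lattice of Descemet's membrane under the endothelium, and the transmembrane types sit on cell surfaces. A UMI marks 1 molecule caught at its 3′ end, so CPM values of different genes were compared without scaling by length.

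Type I collagen RNA lay mostly in deposited clusters 0 and 10. Between them they held 95.8% of all UMIs of *Col1a1* and 95.8% of those of *Col1a2*, which encode the chains of type I collagen. Cluster 0, with 2369 UW and 1719 W cells, was CSC-like (corneal stromal cell), with *Kera*, *Lum*, *Dcn*, *Aldh3a1* and *Angptl7* above 50 CPM in both libraries while the sixth marker of that list, *Ptgds*, stayed below 1 CPM. Cluster 10, with 565 UW and 632 W cells, carried the same 5 stromal markers but was led by *Penk*, *Myoc*, *Wisp2* and *Igfbp6*, and was left unnamed. Median depth per cell was greater in W than in UW in both, at 11853 and 17588 UMIs in cluster 0 and 9288 and 12198 UMIs in cluster 10. RNA of the epithelium was counted in stromal cells as well. Of 6 epithelial markers 3 (*Krt12*, *Krt14* and *Krt5*) were at 50 CPM or more in cluster 0 in each library, with summed levels of 2109 CPM in UW and 2033 CPM in W, but single markers moved in opposite directions: *Krt12* stood at 1554 and 736 CPM, *Krt14* at 57.4 and 821 CPM and *Krt5* at 459 and 426 CPM. The part of this RNA and of depth in the values below was not tested.

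In the stroma most collagens took a smaller share of RNA in W than in UW. All 36 genes together made up 3.15% of the UMIs of cluster 0 in UW and 1.53% in W, and 2.91% and 1.90% in cluster 10. Per cell this was 378.6 collagen UMIs in UW and 288.5 in W in cluster 0, and 293.8 and 249.4 in cluster 10. Type I chains held 59.8% and 60.7% of the collagen UMIs of cluster 0 in UW and W. In cluster 0, 32 of the 36 genes had at least 20 UMIs and could be compared. At least 2-fold lower in W were 16 of them, where 9.67% of all 14245 genes compared were that much lower, and 4 were at least 2-fold higher, where 7.34% of all genes were. Their median log2 ratio of W over UW was -1.0, beside -0.15 over all genes. In cluster 10, 30 genes could be compared, of which 7 were at least 2-fold lower (6.63% of all genes) and 2 at least 2-fold higher (4.97%), with a median of -0.68 beside -0.09. The 36 genes are not independent of each other, and scaling moved the count: under TMM scaling 10 genes were at least 2-fold lower in cluster 0 (7.27% of all genes), and as UMIs per cell without scaling 4 were lower and 5 higher (2.89% and 20.6%). Without a set of 229 W cells described below, 10 were lower. A lower level in W was not particular to collagens, as *Kera*, *Lum*, *Dcn*, *Aldh3a1* and *Angptl7* were lower in both clusters too. In cluster 0, *Kera* stood at 7482 CPM in UW and 2537 CPM in W, and *Dcn* at 40495 and 22050 CPM. *Lum* stood there at 7733 and 4853 CPM, and *Angptl7* at 8772 and 5025 CPM. In cluster 10, *Kera* stood at 2747 and 795 CPM and *Dcn* at 44192 and 28895 CPM.

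**Figure D1:**
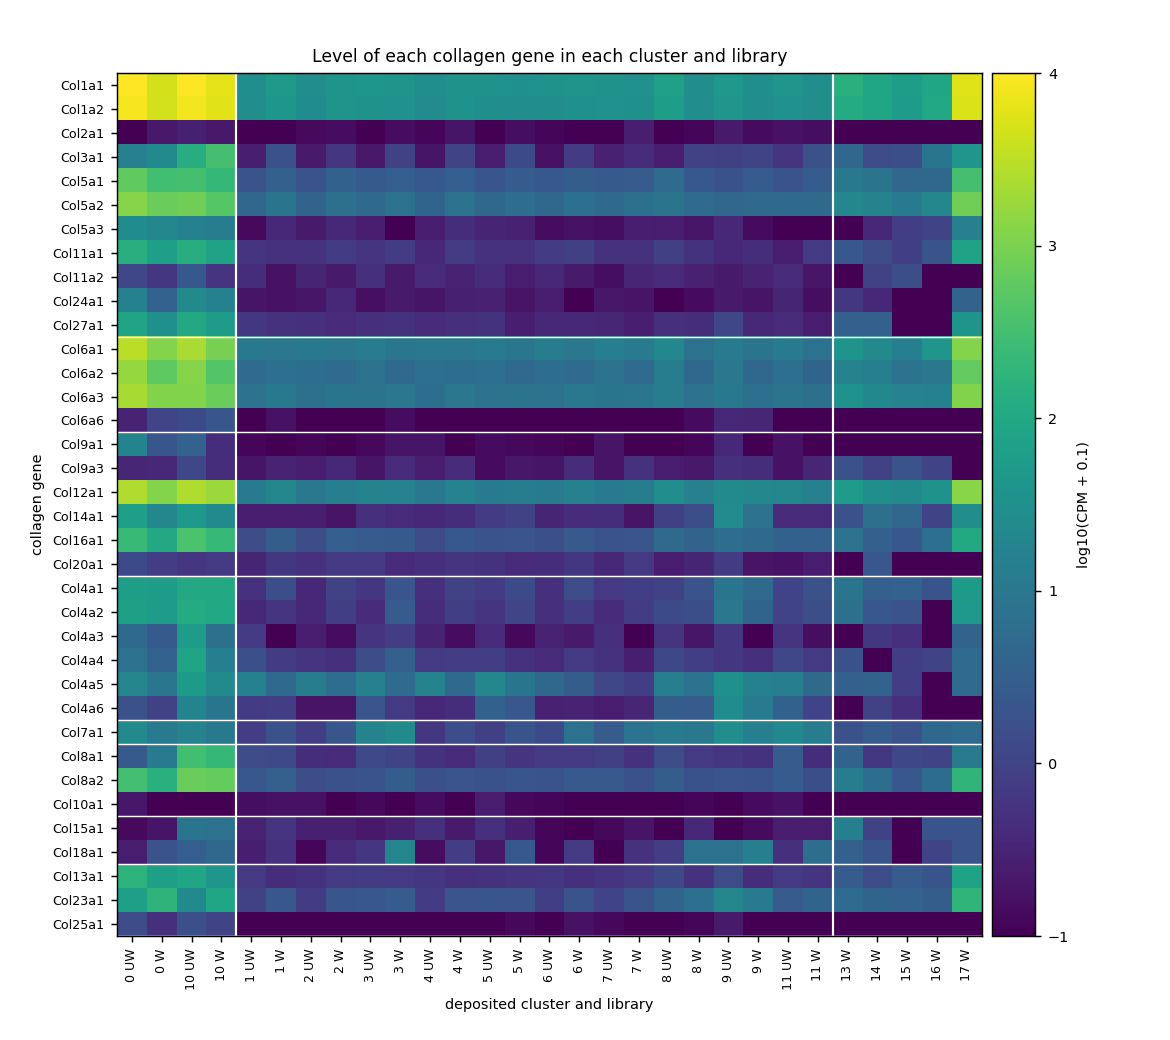
Heat map of the level of each of the 36 collagen genes (rows, grouped by role with white lines) in each deposited cluster and library with at least 20 cells (columns), as log10(CPM + 0.1). Columns of clusters 0 and 10 are bright for types I, V, VI and XII, epithelial columns stay low, and the W column of cluster 17, with 29 cells, resembles the stroma.

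**Figure D2:**
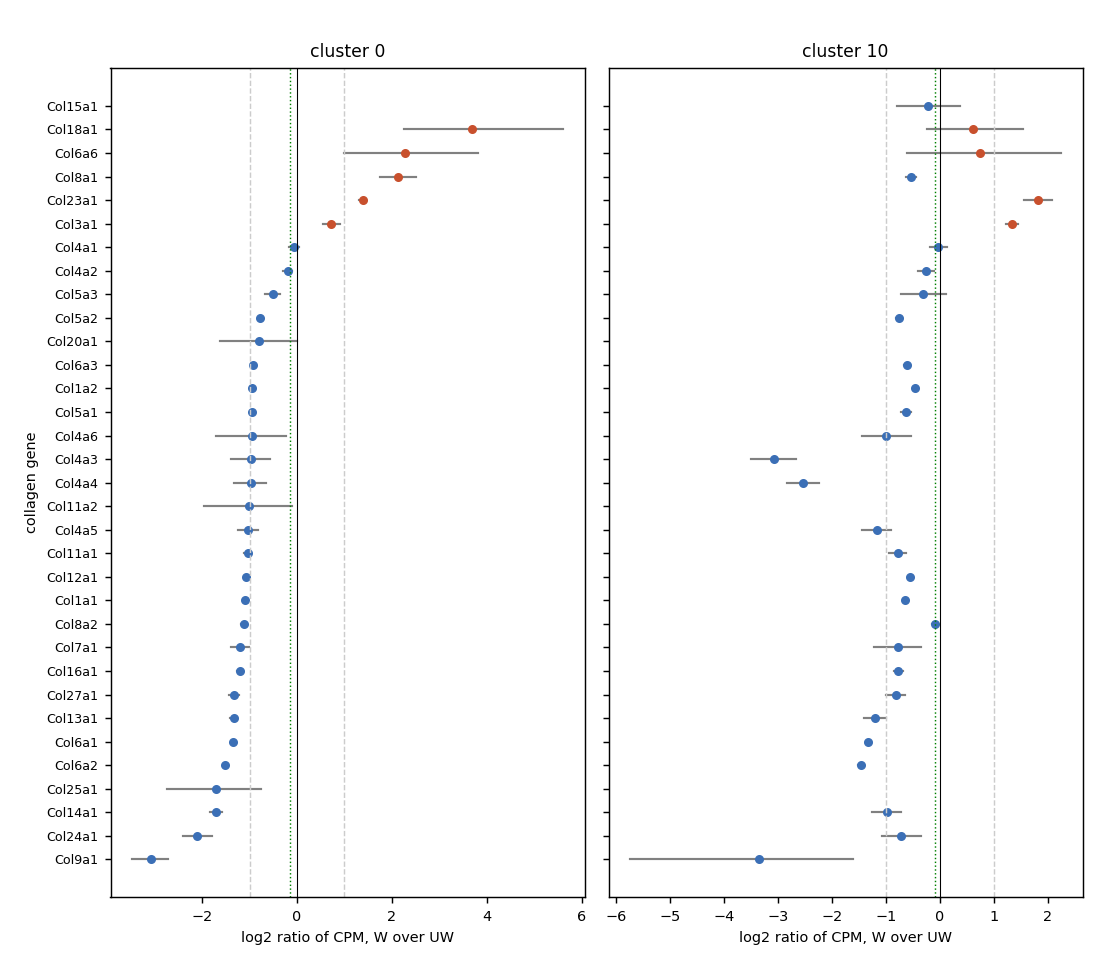
Log2 ratio of CPM, W over UW, for each collagen gene with at least 20 UMIs in cluster 0 (left) and cluster 10 (right), with 95% counting intervals; red points are above 0 and blue points below. Grey dashed lines mark 2-fold and the green dotted line marks the median of all genes, at -0.15 and -0.09, and most points lie left of it in both panels.

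Type I chains were the most abundant collagen transcripts, and both were lower in W. In cluster 0, *Col1a1* (chr11:94936224-94953042, plus strand, GRCm38) stood at 10059 CPM in UW (10022 to 10096) and 4711 CPM in W (4688 to 4735). Its partner *Col1a2* stood at 8786 CPM in UW and 4571 CPM in W. Their log2 ratios were -1.09 and -0.94, with intervals that did not overlap, so *Col1a1* was lower by slightly more. In cluster 10 the differences were smaller, with *Col1a1* at 9911 CPM in UW and 6338 CPM in W (-0.65) and *Col1a2* at 8297 and 6012 CPM (-0.46). As UMIs per cell, with no scaling to depth, *Col1a1* averaged 120.8 in UW and 88.9 in W in cluster 0.

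The minor fibril chains were lower in W in cluster 0 too. Type V nucleates and limits the width of type I fibrils, and *Col5a1* was counted at 592 CPM in UW and 308 CPM in W (-0.94), and *Col5a2* at 1261 and 733 CPM (-0.78). Type XI is the related chain best known from cartilage, and *Col11a1* stood at 134 and 65.1 CPM (-1.04). Types XXIV and XXVII are more distant fibrillar chains. *Col27a1* stood at 82.8 CPM in UW and 32.9 CPM in W (-1.33), and the rarer *Col24a1* at 15.5 and 3.61 CPM (-2.10). In cluster 10 these genes were lower in W too, but by less than 2-fold, with log2 ratios from -0.63 for *Col5a1* to -0.81 for *Col27a1*. The third type V chain, *Col5a3*, was counted at 27.6 and 19.3 CPM in cluster 0. *Col2a1* of cartilage had 4 UMIs in all in cluster 0, and *Col11a2* was at or below 2.28 CPM throughout the stroma.

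*Col3a1* (chr1:45311538-45349706, plus strand), the fibrillar chain that accompanies type I in skin and vessels and is sparse in the healthy corneal stroma, was the exception among fibril-forming genes. It was counted at 14.8 CPM in UW and 24.5 CPM in W in cluster 0, and at 132 CPM (123 to 142) in UW and 335 CPM (322 to 347) in W in cluster 10, a log2 ratio of 1.34. It was concentrated in few cells, as 40 cells held at least 50% of its 5091 UMIs, and 38 of these lay in cluster 10. Its promoter window is printed because its level parted from that of the other fibrillar genes; capitals mark TATAAA, the only match to the 4 motifs searched, which starts 117 bases before the annotated start.
*Col3a1*, chr1:45311288-45311537, plus strand, GRCm38.p6: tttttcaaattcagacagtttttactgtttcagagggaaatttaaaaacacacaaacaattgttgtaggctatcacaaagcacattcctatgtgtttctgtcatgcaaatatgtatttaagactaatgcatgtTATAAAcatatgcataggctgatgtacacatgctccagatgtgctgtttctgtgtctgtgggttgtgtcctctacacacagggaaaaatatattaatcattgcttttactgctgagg

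The 3 main type VI chains were lower in W in both stromal clusters. In cluster 0, *Col6a1* was counted at 3094 CPM in UW and 1205 CPM in W (-1.36), and *Col6a2*, its neighbour on chromosome 10, at 1636 and 573 CPM (-1.51). The third chain of the classic trimer, *Col6a3*, stood at 2183 and 1146 CPM (-0.93). In cluster 10 the order was the same, with log2 ratios of -1.32 for *Col6a1*, -1.46 for *Col6a2* and -0.61 for *Col6a3*. *Col6a1* and *Col6a2* therefore had lower ratios than *Col6a3* in each cluster, with counting intervals that did not overlap. *Col6a6*, a chain that can take the place of the third one, was rare, with 6 UMIs in UW and 33 in W in cluster 0.

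Of the fibril-associated collagens, 4 of the 5 compared in cluster 0 were at least 2-fold lower in W, as were 9.67% of all genes. *Col12a1*, the main collagen on the surface of type I fibrils here, was counted at 2558 CPM in UW and 1206 CPM in W (-1.09), and *Col16a1* at 246 and 106.5 CPM (-1.21). *Col12a1* was within 2-fold under TMM scaling and without the 229 W cells, at -0.93 in both. *Col14a1*, a close relative of *Col12a1*, stood at 67.2 and 20.6 CPM (-1.71). *Col9a1* of type IX had the lowest ratio of the collagens compared in cluster 0, at 17.6 CPM (500 UMIs) in UW and 2.06 CPM (67 UMIs) in W, a log2 ratio of -3.09 (-3.48 to -2.72). In cluster 10, *Col12a1* was lower by less, at 2559 CPM in UW and 1747 CPM in W (-0.55), with *Col16a1* at 381 and 224 CPM (-0.77) and *Col14a1* at 47.3 and 23.9 CPM (-0.98). *Col9a3* and *Col20a1* stayed below 1.3 CPM in both stromal clusters.

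Basement membrane collagens lie in pairs of genes that start close together. *Col4a1* and *Col4a2*, which form the common network, start 21 bases apart on opposite strands of chromosome 8, with their first bases overlapping. In cluster 0, *Col4a1* was counted at 60.1 CPM in UW and 57.4 CPM in W (-0.06, -0.16 to 0.03) and *Col4a2* at 68.1 and 59.3 CPM (-0.20), and in cluster 10 *Col4a1* stood at 105 and 103 CPM (-0.03) and *Col4a2* at 120.5 and 101 CPM (-0.25). As UMIs per cell both were higher in W in both clusters, at 0.721 and 1.08 for *Col4a1* in cluster 0. The sign of their ratio in both clusters thus depended on the scaling.

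*Col4a3* and *Col4a4*, chains of the network found in Descemet's membrane, kidney and lens, also share a bidirectional start. In cluster 10, *Col4a3* was counted at 57.8 CPM in UW (51.7 to 64.4) and 6.85 CPM in W (5.19 to 8.88), and *Col4a4* at 83.7 CPM (76.4 to 91.6) and 14.4 CPM (11.96 to 17.2). These were log2 ratios of -3.08 and -2.54. *Col4a5*, the third chain of that network, stood at 52.9 and 23.4 CPM (-1.17), and *Col4a6* at 17.7 and 8.90 CPM (-0.99). In cluster 0, *Col4a3* and *Col4a4* were at 7.24 CPM or less. The 71 bases between the starts of *Col4a4* (minus strand) and *Col4a3* (plus strand) are printed because both genes were lower in W; they are 69.0% G and C and hold none of the 4 motifs, so no letter is in capitals.
Between *Col4a4* and *Col4a3*, chr1:82586850-82586920, minus strand, GRCm38.p6: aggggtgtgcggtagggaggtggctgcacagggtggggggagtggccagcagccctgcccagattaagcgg

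The high UW level of *Col4a3* and *Col4a4* in cluster 10 came largely from 12 cells. These 12 cells had a UMI of each of *Slc4a11*, *Atp1b1* and *Cdh2*, genes of the ion pumping and junctions of the corneal endothelium, and 7 W cells did. In the 12 UW cells *Col4a3* stood at 812 CPM, *Col4a4* at 1065 CPM, *Col4a5* at 372 CPM, *Col8a1* at 1667 CPM and *Col8a2* at 1839.8 CPM, while *Col1a1* stood at 209.7 CPM, *Col6a1* at 23.7 CPM and the keratocyte proteoglycan *Kera* at 13.5 CPM. They held 72.7% of the *Col4a3* UMIs and 65.9% of the *Col4a4* UMIs of cluster 10 in UW. Without the 12 UW and 7 W cells, a step added after the data were seen, *Col4a3* was counted at 16.6 CPM in UW and 6.18 CPM in W (-1.43) and *Col4a4* at 30.1 and 11.99 CPM (-1.33). Of 30 collagens compared 7 were then at least 2-fold lower and 2 higher, where 6.2% and 5.17% of all genes were. Of the list of 6 endothelial markers, 4 were at 50 CPM or more in cluster 10 in UW and 2 in W, with summed levels of 651 and 207 CPM, and 1 defining marker, *Car12*, was below 2 CPM in both. *Alcam* and *Tjp1*, the other members of that list at 50 CPM, stood at least as high in cluster 0 as in cluster 10. The trabecular meshwork list (*Myoc*, *Angptl7*, *Chil1* and *Cdh11*) had all 4 members at 50 CPM or more in cluster 10 in both libraries. In cluster 0 it had 2 in UW and 3 in W. Without the 12 UW and 7 W cells *Col4a5* was no longer 2-fold lower in cluster 10, at 35.5 CPM in UW and 21.3 CPM in W (-0.74 in place of -1.17). *Col14a1* became 2-fold lower (-1.01 in place of -0.98). *Col4a1* moved from -0.03 to 0.35, *Col4a6* from -0.99 to -0.55 and *Col8a1* from -0.54 to -0.19.

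**Figure D3:**
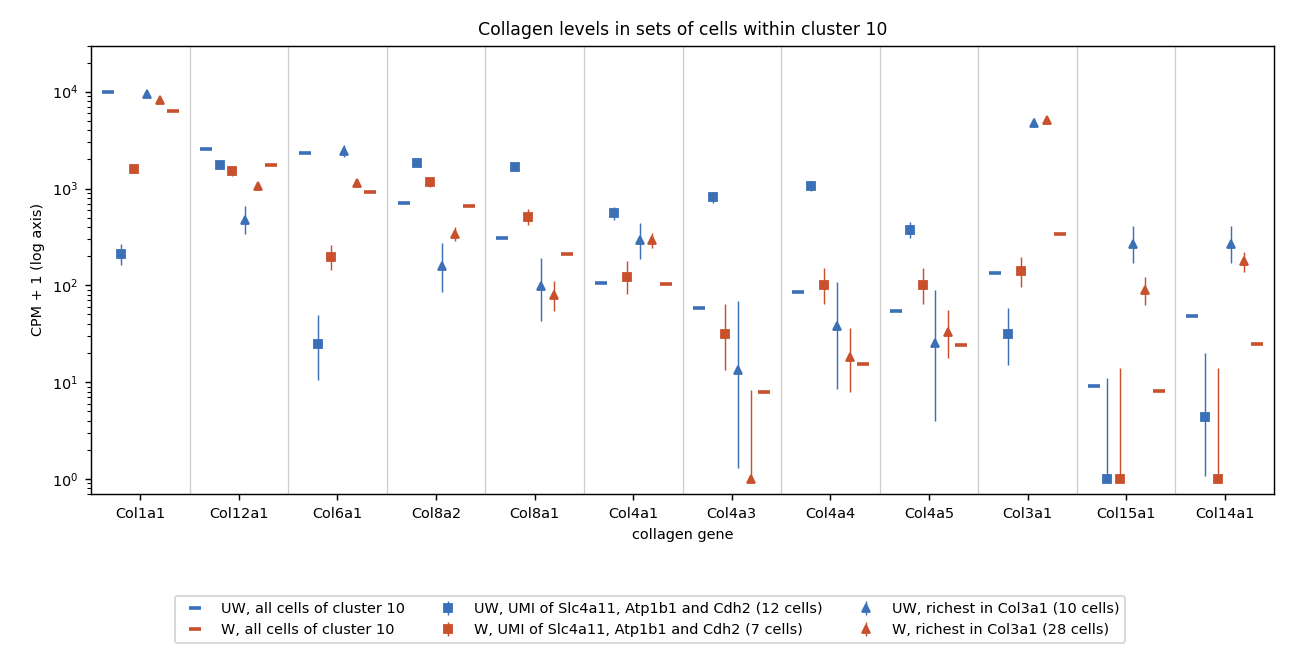
Collagen levels in sets of cells within cluster 10, as CPM + 1 on a log axis: all cells (dashes), the cells with a UMI of each of *Slc4a11*, *Atp1b1* and *Cdh2* (squares) and the cells richest in *Col3a1* (triangles), UW in blue and W in red, with 95% counting intervals on the small sets. The 12 UW cells with those markers stand high for *Col4a3*, *Col4a4* and *Col8a1* and low for *Col1a1* and *Col6a1*, and the *Col3a1*-rich cells stand high for *Col3a1*, *Col15a1* and *Col14a1*.

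The *Col3a1*-rich cells were another small set, chosen by *Col3a1* itself, so their *Col3a1* is a description only. In cluster 10 they numbered 10 in UW and 28 in W. *Col3a1* stood at 4805 CPM in the UW cells and 5130 CPM in the W cells, against 64.5 and 86.1 CPM in the rest of the cluster. They also carried *Col15a1*, a collagen of the basement membrane zone, at 269 CPM in UW and 87.8 CPM in W, which made 46.8% and 61.0% of all *Col15a1* UMIs of cluster 10. *Col14a1* in them stood at 269 and 176 CPM and *Col6a6* at 61.1 and 34.1 CPM. The *Col6a6* levels rested on few UMIs, as all of cluster 10 held 7 in UW and 17 in W. *Kera* was at 73.4 and 24.4 CPM in these cells against 2786 and 835 CPM in the rest. Genes that led in them in both libraries were *Pi16*, *Inmt*, *Osr2*, *C3* and *Matn3*. In the UW cells *Matn3*, at 61.1 CPM, and *C3*, at 73.4 CPM, rested on few UMIs as well. Type I chains were not low in them, with *Col1a1* at 9378 CPM in UW and 8252 CPM in W.

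Cluster 10 was also uneven within each library. The deposited cell table holds a second clustering, whose numbers held different cell types in UW and W: number 8 held 576 UW cells of cluster 11 but 706 W cells of cluster 13. It was therefore read within a library only. In UW, 389 cells of cluster 10 had the number of most of cluster 0 and 175 had another. Among the 389 cells *Col1a1* stood at 12011 CPM, *Col6a1* at 3059.6 CPM and *Col8a1* at 63.3 CPM, and among the 175 at 5877, 907.5 and 772 CPM. In W, 200 cells had the number of most of cluster 0 and 428 had another. Among the 200 cells these genes stood at 8387, 1410.1 and 47.3 CPM, and among the 428 at 5450.2, 712 and 289.9 CPM. Within each library *Col1a1* and *Col6a1* were thus higher, and *Col8a1* lower, in the cells numbered with cluster 0. *Col3a1* stood at 130.4 CPM in the 389 UW cells and 137 CPM in the 175, and at 18.6 CPM in the 200 W cells and 486 CPM in the 428. The clustering was drawn from these same genes, so these values are a description, and the sets of one library were not matched with those of the other.

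Type VIII collagen is the short-chain collagen of Descemet's membrane. *Col8a1* is among the genes that lead cluster 10. There, *Col8a2* stood at 709.7 CPM in UW and 666 CPM in W (-0.09) and *Col8a1* at 306 and 211 CPM (-0.54). In cluster 0, *Col8a2* was lower in W, at 327.5 CPM in UW and 150.05 CPM in W (-1.13), whereas the rare *Col8a1* was higher, at 2.53 CPM (72 UMIs) and 11.002 CPM (357 UMIs), a log2 ratio of 2.12 (1.75 to 2.51). After thinning every cell to 5000 UMIs, *Col8a1* was found in 1.08% of cluster 0 cells in UW and 4.27% in W, and without thinning in 2.70% and 13.7%. In cluster 7 of the epithelium the thinned shares were 0.335% in UW and 0% in W, which allows up to 0.717%. For *Col8a1* in cluster 10 the ratio was 0.04 when cells with under 1000 genes or over 5% mitochondrial UMIs were left out and -0.19 without the cells with endothelial markers, so its direction there was not settled. The promoter window of *Col8a1*, shown for its separate course from *Col8a2*, holds GGGCGG 4 times, in capitals and here on the opposite strand as CCGCCC.
*Col8a1*, chr16:57754738-57754987, minus strand, GRCm38.p6: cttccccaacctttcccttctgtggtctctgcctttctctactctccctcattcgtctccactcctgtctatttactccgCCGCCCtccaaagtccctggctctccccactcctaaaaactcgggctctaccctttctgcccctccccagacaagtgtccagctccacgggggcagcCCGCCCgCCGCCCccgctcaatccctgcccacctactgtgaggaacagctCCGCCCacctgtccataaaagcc

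The transmembrane collagens *Col13a1* and *Col23a1*, which are anchored in the plasma membrane and can be shed, differed in direction. *Col13a1* was counted in cluster 0 at 171 CPM in UW and 67.6 CPM in W (-1.34), and in cluster 10 at 92.8 and 40.3 CPM (-1.20). *Col23a1* (chr11:51289920-51583918, plus strand) was counted in cluster 0 at 67.8 CPM in UW (64.8 to 70.9) and 177 CPM in W (173 to 182), and in cluster 10 at 25.2 and 88.6 CPM. Its log2 ratios were 1.39 and 1.81, and it was the only 1 of the 36 genes that was at least 2-fold higher in W in both stromal clusters. It was found, after thinning, in 25.2% of cluster 0 cells in UW (23.4% to 27.0%) and 54.1% in W (51.7% to 56.5%), and without thinning in 47.5% and 85.7%. Among epithelial cells of cluster 7, led by *Lce3a*, 0.670% in UW and 1.17% in W had a UMI after thinning, at median depths of 23636 and 21232.5 UMIs. The windows of both genes are printed because they parted; capitals mark TATAAA in *Col13a1*, from 237 bases before the start, and GGGCGG, read as CCGCCC, in *Col23a1*, from 11 bases before it.
*Col13a1*, chr10:61979109-61979358, minus strand, GRCm38.p6: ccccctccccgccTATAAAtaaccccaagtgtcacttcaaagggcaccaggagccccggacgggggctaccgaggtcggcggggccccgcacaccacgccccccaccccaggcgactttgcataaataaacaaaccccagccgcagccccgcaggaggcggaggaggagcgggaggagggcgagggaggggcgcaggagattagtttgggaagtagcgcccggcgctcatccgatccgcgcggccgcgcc
*Col23a1*, chr11:51289670-51289919, plus strand, GRCm38.p6: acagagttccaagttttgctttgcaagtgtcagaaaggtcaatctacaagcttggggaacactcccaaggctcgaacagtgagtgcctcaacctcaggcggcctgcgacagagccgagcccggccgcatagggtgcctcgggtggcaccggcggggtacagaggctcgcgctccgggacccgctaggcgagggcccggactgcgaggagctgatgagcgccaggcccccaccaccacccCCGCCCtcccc

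The windows above are the 250 bases before the start in RefSeq, printed where RefSeq and GENCODE give the same start. RefSeq windows were found for 29 of the 36 genes (32 windows), and were searched on both strands, with overlaps allowed, for the TATA box as TATAAA, the box CCAAT, the GC box as GGGCGG and the AP-1 motif as TGANTCA. The TATA box was found in 12.5% of the collagen windows and 12.4% of all promoter windows of that length, CCAAT in 34.4% and 33.8%, GGGCGG in 59.4% and 32.7%, and TGANTCA in 3.125% and 6.75%. These are counts of letters and not of bound sites.

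Of the remaining stromal collagens, *Col7a1* of the anchoring fibrils stood at 24.8 CPM in UW and 10.8 CPM in W in cluster 0 (-1.20). *Col18a1*, the precursor of endostatin, had 4 UMIs in UW and 59 in W there, and 17 and 38 in cluster 10, so it was near the floor in the UW stroma. *Col15a1* had 4 UMIs in cluster 0 in all. *Col10a1* and *Col25a1* stayed below 2 CPM in the stroma.

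Single cells of cluster 0 spread more widely in W than in UW. In UW, *Col1a1* stood at 5707 CPM at the 5th percentile of cells, 9716 CPM at the median and 15694 CPM at the 95th. In W the same percentiles were 1252, 4749 and 10204 CPM. The ratio of the 90th to the 10th percentile was 2.15 in UW and 5.02 in W for *Col1a1*, 1.94 and 3.93 for *Col1a2*, and 2.07 and 4.06 for *Col6a1*. For *Kera*, which is not a collagen, it was 1.90 and 4.64, so the wider spread was not particular to collagens. *Col1a1* and *Col1a2* went together across cells, with a Spearman rho of 0.60 over 2318 UW cells and 0.81 over 1708 W cells after thinning to 5000 UMIs, while the median over 105 pairs of 15 collagens was 0.033 and 0.124. *Col1a1* had a rho of 0.10 with the total UMIs of the cell in UW and -0.44 in W. Without the 229 W cells described next the ratio of percentiles in W was 3.61 for *Col1a1*, 2.94 for *Col1a2* and 3.02 for *Col6a1*. Over 1467 of the W cells, with those 229 left out, the rho of *Col1a1* was -0.26 with total UMIs and 0.75 with *Col1a2*, and the median over pairs 0.076. Cells of 1 library share its depth and free RNA, so these are descriptions.

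**Figure D4:**
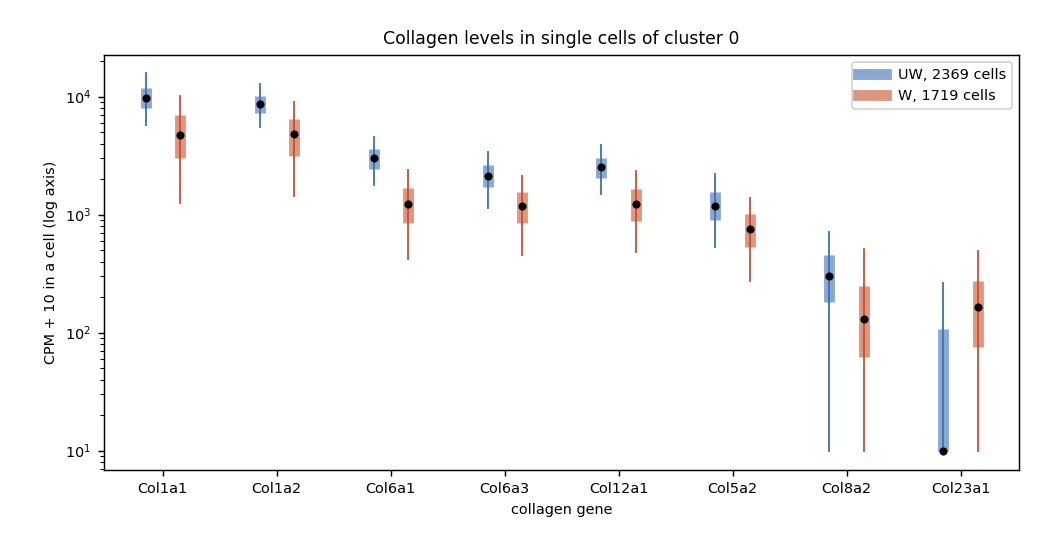
Collagen levels in single cells of cluster 0, as CPM + 10 on a log axis for 8 genes, UW in blue and W in red. Points are medians over cells, thick bars the 25th to 75th percentiles and thin lines the 5th to 95th; the W lines of *Col1a1*, *Col1a2* and *Col6a1* reach further down, and *Col23a1* alone has its W bar above its UW bar.

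A set of W cells with less collagen lay within this spread. In the second clustering, read within W, 229 W cells of cluster 0 were numbered apart from 1477 others, with a median of 28015 UMIs against 16781 UMIs in the 1477. *Col1a1* stood at 1697 CPM in the 229 cells and 5517 CPM in the others, *Col1a2* at 1862 and 5293 CPM, *Col6a1* at 549.6 and 1380.5 CPM, *Col8a2* at 42.9 and 179 CPM, and *Col23a1* at 93.3 and 200.2 CPM. Of 30 collagens compared 14 were at least 2-fold lower in the 229 cells and 0 higher, where 8.27% and 1.64% of all genes were. *Col4a1*, at 63.1 and 56.1 CPM, and *Col8a1*, at 14.6 and 10.1 CPM, were not lower. Genes leading in these cells were *Mmp12*, *Il1rl1*, *Spp1*, *Tnc*, *Timp1* and *Mmp3*. The clustering was drawn from these same genes, so the set is a description. With the 229 cells left out, a step added after the data were seen, *Col1a1* in cluster 0 stood at 5500.2 CPM in W against 10059 CPM in UW, a log2 ratio of -0.87. Of 32 collagens compared 10 were then at least 2-fold lower (8.55% of all genes) and 4 higher (6.94%).

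In the epithelium (clusters 1 to 9 and 11, 13501 UW and 8507 W cells) the 36 genes held a share of 0.0145% of the UW UMIs and 0.0156% of the W UMIs. The most abundant stromal collagens stood there at 0.287% to 1.10% of their cluster 0 level in UW and 0.575% to 1.73% in W, beside 0.254% to 0.874% and 0.485% to 1.58% for the stromal genes *Kera*, *Lum*, *Dcn*, *Angptl7* and *Apod*, so these levels were read as background from free stromal RNA, save for *Col12a1* in the clusters named below. Whether these UMIs came from free RNA or from doublets of stromal and epithelial cells was not tested. Over the pooled epithelium 32 genes were compared, of which 6 were at least 2-fold higher in W (21.8% of all genes) and 2 lower (8.77%). Above the level of free RNA and at 5 CPM or more in some epithelial cluster were 10 collagens.

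*Col7a1*, the collagen of anchoring fibrils, was in UW highest in clusters 9, 11, 3 and 8, whose leading genes included *Wfdc18* (9), the replication genes *Mcm2* and *Mcm3* (11), *Krt18* (3) and *Top2a* of dividing cells (8). It stood at 28.5 CPM in UW and 14.6 CPM in W in cluster 9, at 21.1 and 13.4 CPM in cluster 11, at 11.3 and 9.85 CPM in cluster 8, and at 17.4 CPM (15.96 to 18.8) and 23.9 CPM (21.9 to 26.0) in cluster 3. It was thus higher in W in cluster 3 and lower in 9 and 11. In clusters 6 and 7, led by *Psca* and by *Lce3a*, it was counted at 1.22 and 2.65 CPM in UW and 7.66 and 8.04 CPM in W.

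*Col18a1* (chr10:77052178-77166548, minus strand) had the largest ratio in the epithelium. In cluster 3 it stood at 0.519 CPM in UW (0.302 to 0.830) and 18.8 CPM in W (17.04 to 20.7), a log2 ratio of 5.18. In cluster 9 it was at 7.09 and 14.1 CPM, in cluster 8 at 0.703 and 7.14 CPM and in cluster 11 at 0.385 and 5.98 CPM. In clusters 1, 2, 4, 6 and 7 it stayed below 1 CPM. In cluster 5 it was above the free RNA in both libraries, but below 5 CPM. After thinning, 0.234% of cluster 3 cells had a UMI in UW (0.0638% to 0.598%) and 7.40% in W (5.74% to 9.35%), beside 0% (which allows up to 0.247%) and 0.585% in cluster 7, and without thinning the shares in cluster 3 were 0.894% and 23.5%. Cluster 3 had a median of 18682 UMIs per cell in UW and 23906 in W.

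Type IV genes of the epithelium were led by *Col4a5* and *Col4a6*, which form the network of the epithelial basement membrane and start 1309 bases apart on opposite strands of chromosome X. In UW, *Col4a5* lay between 12.8 and 32.3 CPM in 8 of 10 clusters, against 19.0 CPM in the stromal cluster 0, and was lowest in clusters 6 and 7, at 4.78 and 1.05 CPM. It was lower in W in each of the 10 epithelial clusters, with log2 ratios from -1.75 in cluster 4 to -0.47 in cluster 7, the last within counting error. *Col4a6* was highest in cluster 9, at 26.4 CPM in UW (22.9 to 30.3) and 11.8 CPM in W (10.5 to 13.2), and was at or below 3.46 CPM in the others. *Col4a1* and *Col4a2* were highest in cluster 9 too, at 8.54 and 9.32 CPM in UW and 5.30 and 3.94 CPM in W.

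**Figure D5:**
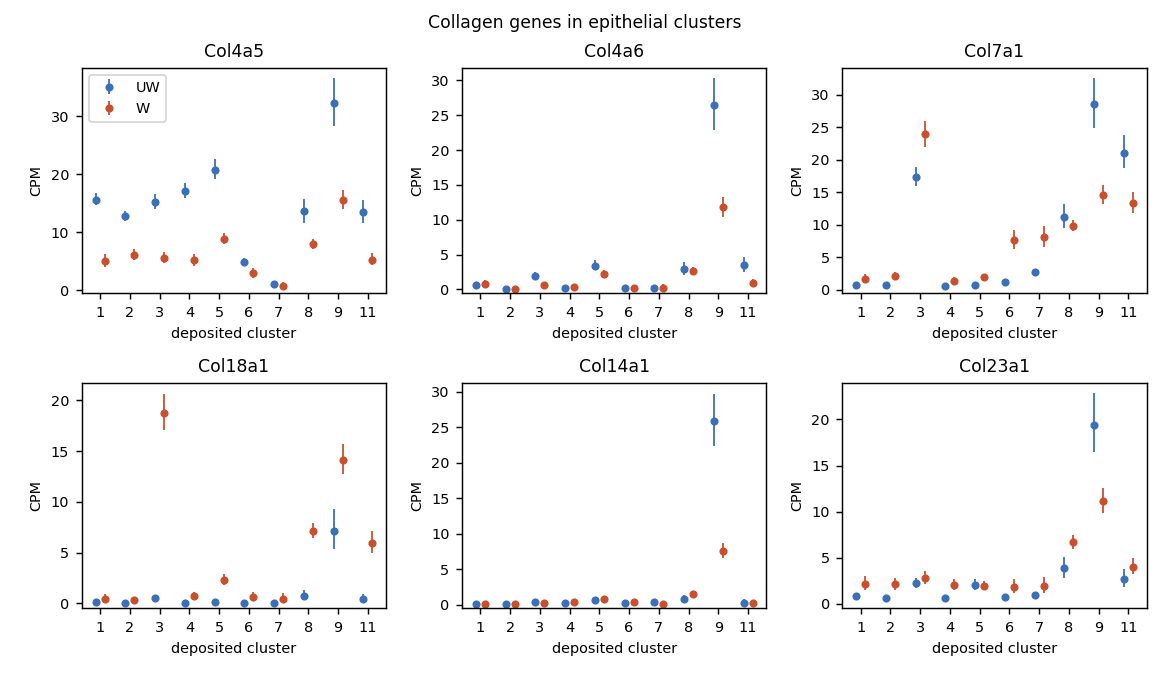
Levels of 6 collagen genes in the 10 epithelial clusters, in CPM with 95% counting intervals, UW in blue and W in red, each panel with its own axis from 0. *Col4a5* is lower in W throughout, *Col18a1* is high in W in clusters 3 and 9, and *Col4a6*, *Col14a1* and *Col23a1* are highest in cluster 9.

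Cluster 9, led by *Wfdc18* and *Dlk2*, also held other collagens above the free RNA. *Col14a1* stood there at 25.9 CPM in UW and 7.59 CPM in W against at most 1.48 CPM elsewhere in the epithelium, *Col23a1* at 19.4 and 11.1 CPM, *Col12a1* at 23.9 and 20.8 CPM and *Col16a1* at 5.91 and 5.22 CPM. *Col12a1* was above the free RNA in clusters 3, 8 and 11 as well, in UW only, at 17.2 to 28.2 CPM, and *Col16a1* in cluster 8 in UW, at 5.16 CPM. Cluster 9 held 521 UW and 956 W cells, so pooled epithelial ratios mix differences of level with differences of cluster sizes. *Col23a1* is an example, with a pooled log2 ratio of 1.35, of 0.10 when the 10 clusters have equal weight, and of -0.80 within cluster 9. Under equal weight 3 genes were at least 2-fold higher and 4 lower (12.6% and 9.97% of all genes). *Col4a1*, at 1.47 over the pooled epithelium, was -0.69 within cluster 9 and 1.94 within cluster 3.

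Immune clusters 13 to 16 held 215 to 710 W cells and at most 7 UW cells each, so no comparison with UW could be made. *Col1a1* was counted there at 60.1 to 149.8 CPM. The most abundant stromal collagens reached 1.16% to 4.70% of cluster 0, within the 1.09% to 6.91% of the stromal references. At 5 CPM or more, the collagens above these references were *Col15a1* in cluster 13, at 14.2 CPM on 26 UMIs, and *Col14a1* in cluster 14, at 7.06 CPM on 26 UMIs. Cluster 13 was led by *Ccl3* and cluster 14 by *H2-Aa*. Cluster 17, with 29 W cells led by *Cxcl9* and *Acod1*, carried stromal levels, with *Col1a1* at 5731 CPM, *Col6a1* at 1210.04 CPM and *Col23a1* at 189 CPM.

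Genes that make, process or bind collagen were next counted as a list. Of 46 such genes 43 could be compared in cluster 0, with 3 at least 2-fold higher in W and 3 lower (7.34% and 9.67% of all genes), and a median log2 ratio of -0.10. Among 18 folding and hydroxylation genes the median was -0.06, with 2 higher and 2 lower. *Plod1*, a lysyl hydroxylase, was counted at 451 CPM in UW and 219 CPM in W (-1.05), and *Colgalt2*, which adds galactose to hydroxylysine, at 161 and 67.4 CPM (-1.26). *Lox*, which oxidises lysines for cross-linking, was higher, at 123 CPM in UW and 337 CPM in W (1.46). In cluster 10, 42 genes were compared, with 2 higher and 3 lower (4.97% and 6.63% of all genes) and a median of 0.06. There *Colgalt2* stood at 66.4 and 26.9 CPM (-1.30) and *Sparc*, a collagen-binding matricellular protein, at 10660.0 and 5299 CPM (-1.01). In the epithelium 17 of 44 were at least 2-fold higher and 4 lower, where 21.8% and 8.77% of all genes were. Of the lower ones, *Mia2*, an export factor, was at 177 and 80.6 CPM (-1.14). Of the 17 higher genes 7 in UW and 12 in W were above the free stromal RNA, taken as the highest share of the cluster 0 level among the 5 stromal genes in any epithelial cluster. The 17 included 9 of the 18 folding and hydroxylation genes, of which 4 were above it in UW and 9 in W. *P4ha1*, a prolyl hydroxylase subunit, stood at 2.35% of its cluster 0 level in UW and 7.64% in W, and *Serpinh1*, the collagen chaperone, at 0.696% and 2.58%, above free RNA in W only. Of the 4 cross-linking genes that were higher, *Lox*, *Loxl2* and *Loxl3* stood at 0.787% to 1.39% of their cluster 0 level in W, within the range of free RNA, and *Loxl4* was above it in both libraries.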

How the data were processed

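Droplet libraries were aligned and counted by the authors with Cell Ranger 3.1.0. Doublets were identified with DoubletFinder, and cells were filtered, integrated and clustered with Seurat. The study's text and the processing notes name different genome builds and kit versions; no coordinate of the files was used. The deposited table held raw UMI counts per gene and cell, with no normalization, and the deposited cell table held the integrated clusters, used as given, and a second clustering whose numbers held different cell types in each library and which was therefore read within a library only. In the deposited cells 501 to 7570 genes were detected, and no doublet was removed here, although a field of the cell table marked 305 UW and 164 W cells as doublets. Gene positions are those of GRCm38 (GENCODE) and promoter windows those of RefSeq on GRCm38.p6.

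Groups were the libraries, taken from their labels. Counts were summed per cluster and library with Python 3.11.15 (pandas 2.3.3, numpy 2.4.6, scipy 1.17.1), divided by the total of all genes and multiplied to CPM, with exact Poisson 95% intervals. Log2 ratios of W over UW were given exact conditional binomial intervals, and cell shares Clopper-Pearson ones. A gene needed 20 UMIs in a group for a ratio and differed when it was at least 2-fold higher or lower. With 1 library per condition, made from pooled mice, intervals cover counting error only and no gene was tested. Cells with fewer than 5000 UMIs were left out of thinned shares (51 UW and 11 W cells in cluster 0). A collagen counted as above free RNA in a cluster when the lower bound of its level, as a share of cluster 0 and of the higher of clusters 0 and 10, exceeded that of 5 stromal genes. The second condition was added after the data were seen. Collagens named were those at 50 CPM in a cluster of 50 cells, those above free RNA at 5 CPM in the epithelium, and rarer members named after their values were seen. Scaling factors by TMM (edgeR 4.0.16) and median of ratios (DESeq2 1.42.0, in R 4.3.3), mean CPM per cell, thinning, stricter filters on cells and genes, and sets of cells were tried as alternatives. The calculations were tested on simulated data. The members and lists were chosen with earlier results of these data known.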

Additional observations from a re-analysis of the deposited data

Results flagged for a closer look

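For 6 collagens the ratio of W over UW had one sign in one group of cells and the opposite sign in another, with intervals clear of 0 and a ratio of at least 2-fold in one of them. *Col4a6*, *Col5a1*, *Col5a2* and *Col6a3* also had opposite signs in the epithelium and the stroma, with no ratio of 2-fold. Of these, *Col5a1*, *Col5a2* and *Col6a3* were above free stromal RNA in no epithelial cluster, and were read as background there. For the stromal genes that background was 0.254% to 0.874% of the cluster 0 level in UW and 0.485% to 1.58% in W. The differences between groups were not tested, since each group had 1 library per condition. No share of all genes with opposite signs is given beside the count of 6, so it is a description only. Over all genes the median log2 ratio also differed in sign, at 0.22 in the pooled epithelium, -0.15 in cluster 0 and -0.09 in cluster 10. The log2 ratio of *Col12a1* was 0.29 in the pooled epithelium, -1.09 in cluster 0 and -0.55 in cluster 10. *Col14a1* stood at 0.62, -1.71 and -0.98 in the same order, and *Col16a1* at 0.67, -1.21 and -0.77. *Col4a2* had log2 ratios of 1.34, -0.20 and -0.25, the last 2 of a sign that depended on the scaling, and *Col7a1* of 0.93, -1.20 and -0.78. *Col8a1* had log2 ratios of 2.12 in cluster 0, -0.54 in cluster 10 and -0.62 in the pooled epithelium. In cluster 10 that of *Col8a1* was 0.04 under the stricter filter on cells and -0.19 without cells with endothelial markers, and in the epithelium, at 0.844 CPM in UW and 0.548 CPM in W, *Col8a1* was above free stromal RNA in cluster 11 in UW only. Pooled epithelial ratios also carry the larger number of W cells in cluster 9 (521 UW and 956 W cells). With equal weight per epithelial cluster they were 0.03 for *Col12a1*, -1.34 for *Col14a1*, 0.15 for *Col16a1*, 0.01 for *Col4a2* and -0.01 for *Col7a1*. Within cluster 9 the ratios of the same genes were -0.20, -1.77, -0.18, -1.24 and -0.97, those of *Col12a1* and *Col16a1* within counting error.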

How the results depend on the processing

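Of 66 counts of genes under an alternative 53 stayed within 1.5 times the reported count, while 35 of 66 medians and sums and 249 of 485 ratios of single genes moved by less than their counting interval, as did 7 of 16 shares of cells. The sign changed in 24 of the 485, which belong to 9 ratios that were all within 2-fold as reported (*Col4a1* and *Col4a2* in clusters 0 and 10, *Col8a1* and *Col8a2* in cluster 10, and *Col14a1*, *Col4a6* and *Col7a1* in the epithelium), and in 6 of the 66, all for the epithelial median or sum. In cluster 0 the 16 genes at least 2-fold lower in W became 10 under TMM scaling, under median-of-ratios scaling, with the mean of CPM per cell and without the 229 W cells numbered apart in the second clustering, and 4 as UMIs per cell without scaling; of all genes 7.27%, 7.2%, 9.16%, 8.55% and 2.89% were lower in that order, in place of 9.67%. The 4 higher became 2 with at least 100 UMIs per gene (4.95% of all genes). These scalings set the median of all genes in cluster 0 at 0.00 (TMM) and 0.50 (UMIs per cell), in place of -0.15. In cluster 10 the 2 higher became 1 with the mean of CPM per cell (4.91% of all genes, in place of 4.97%) and 4 without the top 1% of cells per gene (7.61%), and the 7 lower became 4 as UMIs per cell (3%, in place of 6.63%). In the epithelium the 2 lower became 0 without the top 1% of cells per gene, which left 23 genes to compare (9.55% of all genes, in place of 8.77%), 1 with at least 100 UMIs per gene (7.84%) and 4 with equal weight per cluster (9.97%), which also took the 6 higher to 3 (12.6%, in place of 21.8%). Where no value above shows it, the cause was not tested. UMIs per cell and the removal of the 229 W cells and of cells with endothelial markers were chosen after seeing the data. No paired analysis was possible because each condition had 1 library, and for the same reason no library could be left out. Depth limits members under 20 UMIs, for which no ratio was given.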

Other observations

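In cluster 10, unlike cluster 0, cells of the unwounded library differed widely in type I collagen. Cluster 10 in UW included the sets of cells described above, whose part in this spread was not tested. The ratio of the 90th to the 10th percentile of *Col1a1* over cells was 6.84 in UW and 5.06 in W in cluster 10, beside 2.15 and 5.02 in cluster 0. The same ratio for *Col6a1* was 10.8 and 7.54 in cluster 10.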
